A study of Homo sapiens with 6 samples.

Results

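MicroRNA genes whose signal stood above background were followed in HaCaT keratinocytes 48 h after a single X-ray dose of 20 Gy and in mock-irradiated cultures. The members were selected on a measured value: a transcript cluster (the array's unit for 1 gene or transcript group) had to carry a single microRNA symbol and a mean log2 signal over all 6 arrays above 6.01, the mean of the brightest of 23 background probe sets. Where a symbol had several clusters, the one with the highest mean was kept. In all, 164 of 1040 microRNA genes passed (15.8%), and 876 did not. For comparison, 9324 of 22411 genes with a single symbol (41.6%) passed the same limit. The level is therefore a description, not a finding, and levels of different clusters are not compared as amounts of RNA, because each cluster has its own probes.

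The irradiated group comprised 3 cultures given 20 Gy at 1.15 Gy per min, and the mock group comprised 3 cultures given 0 Gy, numbered 1 to 3 in each group by the sample titles. HaCaT is an immortalised human skin keratinocyte line, and all cultures are of this 1 line. All cultures were grown in DMEM high-glucose medium with fetal bovine serum and antibiotics. Total RNA from RNeasy columns was amplified with the Ambion WT Express kit, biotin-labelled and hybridised to 6 arrays. Of 12 keratinocyte markers, 8 had a cluster of their own, and all 8 were above background with mean log2 signals from 11.03 (PKP1) to 17.4 (KRT5). DSP and PKP1, both proteins of desmosomes, were lower in irradiated cultures in the paired test described below. No fibroblast or endothelial marker (6 of each measured) was above background, and 1 of 6 melanocyte markers was, at a log2 level of 6.41. The mean log2 level of the fibroblast list was 4.33 to 4.44 on irradiated arrays, against 4.23 to 4.40 on mock arrays. That of the endothelial list was 4.49 to 4.62 on irradiated arrays, against 4.32 to 4.55 on mock arrays. That of the melanocyte list was 4.48 to 4.57 on irradiated arrays and did not overlap the 4.35 to 4.41 of mock arrays, and the part of these lists in the results below was not tested. Array medians over all clusters ran from 4.53 to 4.66. The first principal component, with 48.6% of the variance, set both replicate 3 arrays apart from the other 4. The number of arrays, 3 a group, limits the precision, and in such bulk samples fewer cells of a type and less RNA per cell cannot be told apart.

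MicroRNAs are short RNAs cut from longer transcripts. RNA polymerase II transcribes a primary transcript, the nuclear enzyme DROSHA with its partner DGCR8 releases a hairpin, XPO5 exports it, and DICER1 cuts the hairpin to a duplex of which 1 strand enters an Argonaute protein. The mature strand pairs with target mRNAs mainly through its seed, bases 2 to 8 from its 5′ end, and microRNAs that share a seed share many predicted targets. Many microRNA genes lie in introns of protein-coding host genes. The amplification used here does not select short RNAs, so the signal of a microRNA cluster can come from the primary transcript, the hairpin, the host's intron or genomic copies of the same sequence, and it does not measure the mature strand as such. In skin, miR-203, miR-205 and miR-21 are the microRNAs most often described.

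Mature sequences were matched by symbol to RefSeq (GRCh38.p14) for 144 members, which together gave 195 mature strands with 180 distinct seeds. The seed is in capitals, and U stands for uracil. The first set holds strands of MIR181D, MIR4450 and MIR4737, which together with MIR4748 were the members that passed the paired test described below under each of 6 alternatives (3 normalizations and leaving out each pair). None of these members passed in an unpaired fit, or in the paired test run over all single-symbol genes or all clusters. The first set also holds the strands of MIR181B1 and MIR4262, which share the seed of miR-181d. MIR4450 passed the signal limit only through the irradiated group.
hsa-miR-181d-5p: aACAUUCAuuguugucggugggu
hsa-miR-181b-5p: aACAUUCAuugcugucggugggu
hsa-miR-4262: gACAUUCAgacuaccug
hsa-miR-4450: uGGGGAUUuggagaagugguga
hsa-miR-4737: aUGCGAGGaugcugacagug

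The second set holds strands of well-described microRNAs among the members, of which MIR29A, MIR193A, MIR138-1, MIR342 and MIR654 passed the paired test and MIR21 and MIRLET7F1 did not. The calls of MIR29A, MIR342 and MIR654 were lost after quantile normalization. The strands of miR-21-5p and miR-590-5p have the same seed.
hsa-miR-29a-3p: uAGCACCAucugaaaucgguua
hsa-miR-193a-3p: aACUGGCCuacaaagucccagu
hsa-miR-138-5p: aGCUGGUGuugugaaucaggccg
hsa-miR-342-3p: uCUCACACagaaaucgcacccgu
hsa-miR-654-3p: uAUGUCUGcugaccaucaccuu
hsa-miR-21-5p: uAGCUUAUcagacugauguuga
hsa-miR-590-5p: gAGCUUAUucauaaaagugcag
hsa-let-7f-5p: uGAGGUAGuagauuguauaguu

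The third set shows the largest group of members with a shared seed, 4 genes of the miR-548 family. Of these, 3 have the same mature strand, letter for letter, although RefSeq places their genes on chromosomes X, 4 and 21. For all 4 genes the array's cluster identifier gives another chromosome than RefSeq, so the strands may not belong to the copies measured.
hsa-miR-548aj-5p: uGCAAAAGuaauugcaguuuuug
hsa-miR-548g-5p: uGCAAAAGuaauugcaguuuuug
hsa-miR-548x-5p: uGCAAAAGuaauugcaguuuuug
hsa-miR-548f-5p: uGCAAAAGuaaucacaguuuuu

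The microRNA genes above background were more often higher in irradiated than in mock cultures, by a small amount. The difference (20 Gy minus mock, log2 signal) had a median of 0.16 over the 164 members, a 1.12-fold higher signal, and 110 members were higher and 54 lower. Over all 9324 genes above background the median was -0.089 in the deposited values, and 28.2% were higher. This baseline depended on the normalization. The median was -0.015 with 45.8% higher after quantile normalization, and -0.0092 with 47.5% higher after cyclic loess. After centring the arrays on their medians it was -0.16, with 15.5% higher. Within replicate numbers 1, 2 and 3 the members' median difference was 0.19, 0.24 and 0.070. In all 3 pairs 63 members were higher (38.4%) and 18 lower (10.98%), beside 9.94% and 42.0% of all genes above background. No member differed 2-fold or more, and the range was -0.99 to 0.91. Members cannot be taken as independent, since several share sequences.

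The choice of members by the mean level admits genes through 1 group alone. In 154 members both group means were above 6.01, in 9 only the irradiated mean and in 1 only the mock mean. The 154 members had a median difference of 0.14, with 101 higher and 53 lower, a set chosen after the values were seen. Dim genes ran upward as well: of 12211 genes at or below background that are no microRNA genes, 72.4% were higher in irradiated cultures, with a median difference of 0.067. The 876 microRNA genes at or below background had a median difference of 0.055, and 61.5% were higher.

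Split by level, members between the limit and 6.5 had a median difference of 0.23 (40 genes), against -0.055 for 1126 other genes. Between 6.5 and 7 the medians were 0.15 for 33 members and -0.086 for 1053 other genes. The lowest range includes members that passed the limit only through the irradiated group, MIR342, MIR3173 and MIR4450 among them. The members' median in that range is therefore not free of the selection. Members with a mean log2 signal between 7 and 8 had a median difference of 0.25 (31 genes), against -0.10 for 1909 other genes at that level. Between 8 and 10 the medians were 0.10 for 30 members and -0.11 for 2748 other genes. Above 10 the medians were 0.021 for 30 members and -0.086 for 2324 others. In the deposited values the members' median thus lay above that of other genes in each of these ranges. It was smallest among the brightest members, of which 19 belong to the miR-548 family.

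**Figure D1:**
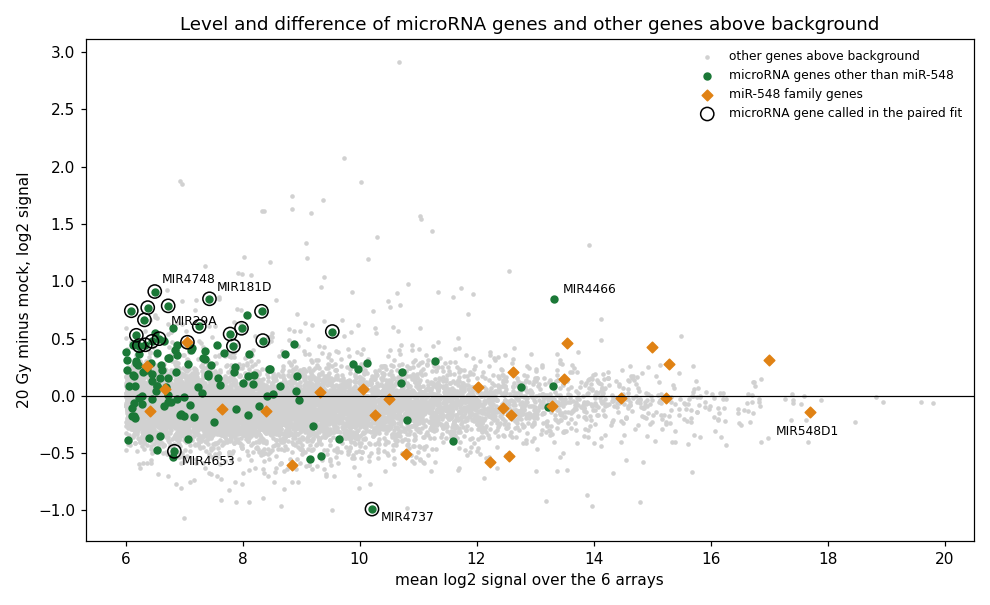
Each point is 1 gene above background, with its mean log2 signal over the 6 arrays on the horizontal axis and its 20 Gy minus mock difference in log2 signal on the vertical axis. MicroRNA genes other than miR-548 lie mostly above 0 between levels of 6 and 9, and miR-548 genes scatter on both sides of 0 at high levels.

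Whether single members differed depended on the use of the replicate numbers. An unpaired limma fit over all 67528 transcript clusters called none at an adjusted p of 0.05 (0% of the clusters). The lowest adjusted p of a member was 0.607, and 29 members had an unadjusted p under 0.05. A paired limma fit, which took each replicate number as a block, over the 9324 genes above background, called 21 members, 19 higher and 2 lower. The paired fit was chosen with earlier results of these data known, in which unpaired fits called nothing. In that fit 5.01% of all genes were called in either direction, 1.3% higher and 3.71% lower, beside 12.8% of the members in either direction, 11.6% higher and 1.22% lower. Of the members called higher, 4 (MIR342, MIR657, MIR3173 and MIR4450) had a mock mean at or below the signal limit and passed it only through the irradiated group, so that the size of their difference is poorly determined. Leaving out replicate number 1, 2 or 3 from the paired fit left 14, 10 or 11 members called, of which 9, 6 and 7 were among the 21. Over all 9324 genes those fits called 251, 66 and 140, beside 467 with all pairs. The same paired fit over all single-symbol genes, or over all clusters, called no member and no other gene. After quantile normalization 16 of 17 called members were higher, and after centring the arrays on their medians 23 of 33 were. The same changes moved the calls over all genes: 121 higher and 346 lower in the deposited values, 119 and 84 after quantile normalization, and 133 and 1558 after centring.

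Without any test, 39 members had 3 irradiated values that did not overlap the 3 mock values, 37 of them higher and 2 lower. That is 23.8% of the members, beside 9.23% of all genes above background, both shares counting either direction. The 37 higher ones included MIR342, MIR933, MIR3173 and MIR4450, whose mock means lay below the signal limit. These passed the limit only through the irradiated group.

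MIR4748 had the largest increase. Its log2 signal was 6.70, 6.95 and 7.22 in irradiated cultures 1 to 3, against 5.82, 6.04 and 6.27 in mock cultures. Every irradiated value lay above every mock value, and the 3 paired steps were nearly alike. The mock mean of 6.04 lay just above the signal limit, and the value of mock culture 1 lay below it. The size of the difference is therefore poorly determined. The difference was 0.91 (SE 0.0643, adjusted p = 0.0093, paired limma fit). In the unpaired fit over all clusters its adjusted p was 0.607.

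MIR181D encodes a member of the miR-181 family, known for roles in lymphocyte development and for targeting BCL2. Its log2 signal was 7.69, 8.10 and 7.79 in irradiated cultures, against 6.83, 7.13 and 7.08 in mock cultures, so that the groups did not overlap. The difference was 0.85 (SE 0.0780, adjusted p = 0.016, paired limma fit). Neither member with the same seed was called, and the difference between them and MIR181D was not tested. MIR181B1 had 6.31, 6.78 and 5.05 in irradiated cultures, against 6.39, 7.04 and 5.25 in mock cultures, a difference of -0.18 (adjusted p = 0.149), and MIR4262 a difference of 0.23. Of 6 measured miR-181 family genes, MIR181D and MIR181B1 were the 2 above background.

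MIR4450, within the cytoskeletal gene SHROOM3, had 6.80, 6.74 and 6.76 in irradiated cultures, against 5.80, 5.99 and 6.20 in mock cultures. The irradiated values lay close together, and the mock mean of 5.995 was below the background limit. The difference was 0.77 (adjusted p = 0.0209, paired limma fit).

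MIR193A, whose product is described as a tumour suppressor in epithelial cancers, had 7.80, 7.99 and 8.39 in irradiated cultures, against 7.36, 7.40 and 7.80 in mock cultures. The lowest irradiated and the highest mock value touched, and the irradiated culture was higher in each pair. The difference was 0.54 (SE 0.0721, adjusted p = 0.0254, paired limma fit).

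MIR654 lies in the imprinted DLK1-MEG3 region of chromosome 14, a large microRNA cluster. Its signal was 6.77, 7.09 and 7.50 in irradiated cultures, against 6.17, 6.62 and 6.22 in mock cultures, a difference of 0.79 (adjusted p = 0.0444, and 0.056 after quantile normalization). MIR494 and MIR668, members of the same cluster on chromosome 14, had differences of 0.044 and -0.37, neither called. The cluster as a whole was not tested. MIR342, within EVL, an actin regulator, had a difference of 0.66 (adjusted p = 0.0435, and 0.0573 after quantile normalization), with a mock mean of 5.99 below the limit. MIR138-1, whose mature strand is known to act on the histone gene H2AX, had 6.66, 6.75 and 6.66 in irradiated cultures, against 6.02, 6.37 and 6.25 in mock cultures, a difference of 0.48.

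MIR29A, whose product targets collagen and DNA methyltransferase mRNAs, rested on the pairing. Its signal was 7.28, 7.82 and 5.37 in irradiated cultures, against 6.83, 7.08 and 5.07 in mock cultures. The groups overlapped widely, with both replicate 3 cultures low, while the irradiated culture was higher in each pair, by 0.31 to 0.74. The difference was 0.50 (SE 0.0953, adjusted p = 0.0414, paired limma fit, and 0.0518 after quantile normalization). In the unpaired fit its adjusted p was 0.920, and the unpaired difference became -0.13 without mock replicate 3.

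The other called increases were of microRNAs with little described function. MIR657 (difference 0.74, in AATK) and MIR4323 (0.74, in POU2F2) were followed by MIR1229 (0.61, in MGAT4B), MIR4296 (0.59, in CTBP2), MIR3153 (0.56, in CKS2) and MIR3173 (0.53, in DICER1). MIR657 and MIR3173 had mock means of 5.73 and 5.92, below the limit, and the call of MIR3173 was lost after quantile normalization (adjusted p = 0.0509). MIR4516 (0.48), MIR548M (0.47), MIR4479 (0.45), MIR2113 (0.44) and MIR3907 (0.43) were also called. Increases of like size that missed the threshold were MIR4466 at 0.85 (adjusted p = 0.0501), MIR766 at 0.71 (adjusted p = 0.0525) and MIR4489 at 0.59 (adjusted p = 0.0533). MIR4466 was the brightest of these, with 13.4, 14.4 and 13.5 in irradiated cultures, against 13.1, 13.4 and 12.2 in mock cultures.

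**Figure D2:**
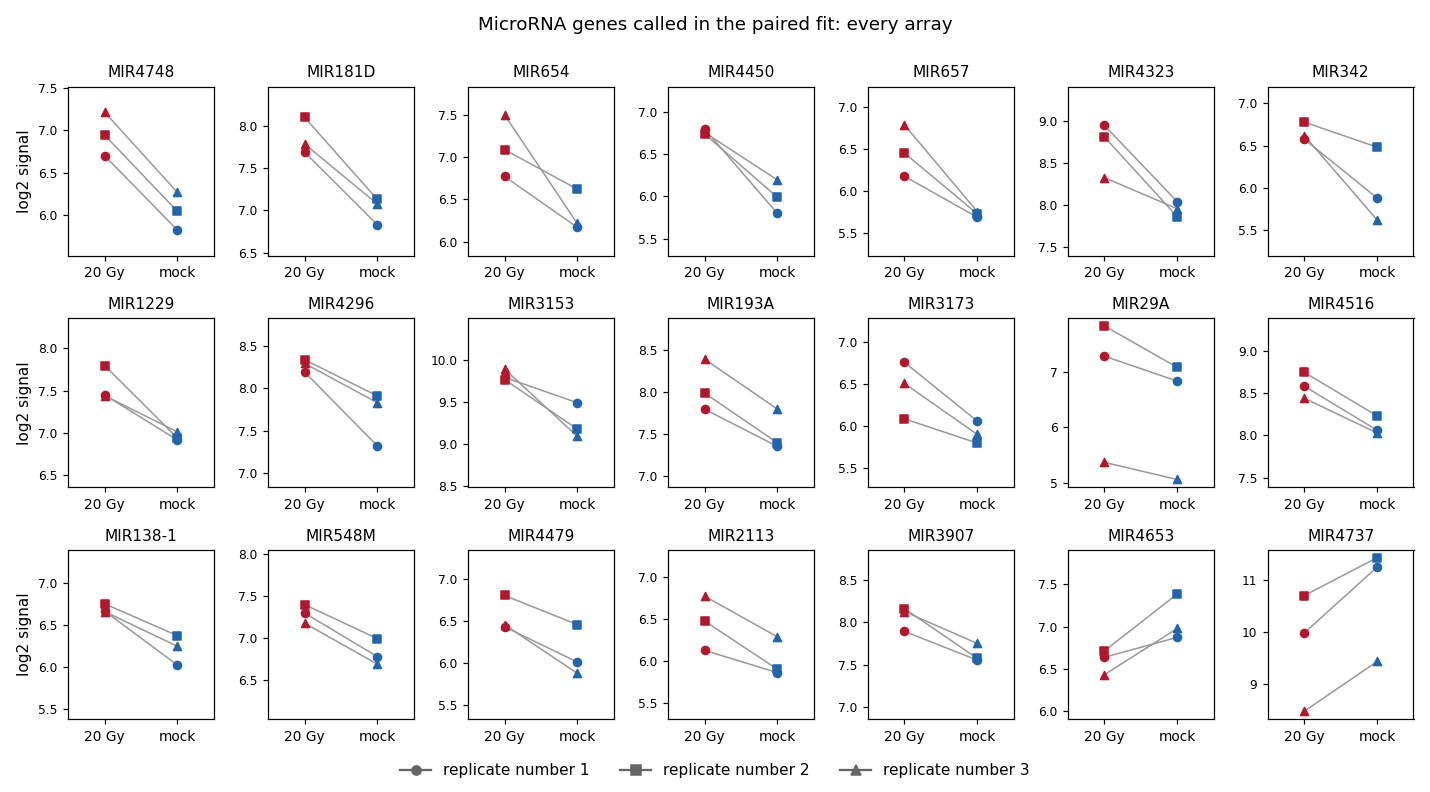
Each panel shows 1 of the 21 called microRNA genes, with the 3 irradiated cultures (20 Gy) on the left and the 3 mock cultures on the right, their log2 signals on the vertical axis and lines joining cultures of the same replicate number. The lines run down toward mock in 19 panels and up toward mock in MIR4653 and MIR4737.

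MIR4737 fell to 9.98, 10.7 and 8.47 in irradiated cultures, against 11.3, 11.4 and 9.43 in mock cultures. Replicate 3 was low in both groups, so the groups overlapped, while the irradiated culture was lower in each pair. The difference was -0.99 (SE 0.111, adjusted p = 0.0177, paired limma fit), the largest decrease of any member. MIR4653, within AP1S1, a subunit of a clathrin adaptor, had 6.64, 6.71 and 6.43 in irradiated cultures, against 6.87, 7.38 and 6.98 in mock cultures. Its groups did not overlap, and the difference was -0.48 (adjusted p = 0.0448, and 0.0925 after quantile normalization).

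Other members were lower in all 3 pairs without passing the test. MIR21, an oncogenic microRNA abundant in keratinocytes and in wounds, had 7.002, 7.57 and 6.09 in irradiated cultures, against 7.01, 7.97 and 6.81 in mock cultures, a difference of -0.38 (adjusted p = 0.125). MIR590, which shares its seed, had a difference of -0.028. MIRLET7F1, of the let-7 family that acts on RAS and HMGA2 mRNAs, had 6.81, 6.45 and 5.999 in irradiated cultures, against 6.91, 6.502 and 6.88 in mock cultures, a difference of -0.35 (adjusted p = 0.210). MIR548AN, MIR570, MIR548H4, MIR383, MIR3198-1, MIR3942, MIR5047 and MIR3619 had differences between -0.58 and -0.26, none called.

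Few genes of the families most often studied were above background among those with a cluster of their own. Of 10 let-7 genes measured only MIRLET7F1 was, and of the measured genes of the MIR106A and MIR106B clusters, the miR-15/16 family, the miR-30 family and the miR-183 cluster none was (0 of 9, 0 of 3, 0 of 6 and 0 of 3). The listed genes of the MIR17 cluster itself stood in a cluster of several symbols and were not measured singly, as did MIR15A, MIR16-1, MIR34B, MIR34C, MIR29B2 and MIR29C. None of 6 measured epithelial microRNA genes was above background, and MIR205 and MIR203A stood in clusters of several symbols. The miR-34 family had 1 measured gene, below background. MIR21 and MIR221 were the 2 of 4 above background in a group of growth-associated microRNAs, and MIR221, which acts on the cell-cycle inhibitor CDKN1B, had a difference of 0.17. MIR26B was 1 of 4 measured genes above background in the miR-26 and miR-103 families, with a difference of 0.086, and MIR29A 1 of 2 of the miR-29 family. Of 11 measured microRNAs of blood, muscle and neurons none was above background.

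The miR-548 family is a primate-specific family of many related copies derived from Made1 transposable elements, some with the same mature strand, so the members are uncertain as single genes. The 27 members had mean log2 signals from 6.36 to 17.7 with a median of 12.2, given as a description, since the level chose the members. The median difference was -0.020, with 12 higher and 15 lower, and 1 (MIR548M) was called. Their median log2 signal was 11.96, 13.1 and 11.3 in irradiated cultures 1 to 3, against 12.6, 12.9 and 11.8 in mock cultures 1 to 3. Thus culture 2 was high and culture 3 low in both groups: in 22 of 27 members both replicate 3 values were the lowest 2, beside 24 of the other 137 members and 25.8% of all genes above background.

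The spread of the family was also wider than that of other bright genes. The median SD over 3 irradiated cultures was 1.06 for miR-548 members with a level above 10, against 0.29 for other genes above 10. In mock cultures the SDs were 0.63 and 0.29. The 4 genes of the shared seed shown above (MIR548AJ2, MIR548F1, MIR548G and MIR548X) had differences between -0.090 and -0.019.

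The brightest of all members, MIR548D1, had 17.7, 18.6 and 16.7 in irradiated cultures, against 18.0, 18.3 and 17.1 in mock cultures. The groups overlapped. MIR548AD had 16.9, 18.4 and 16.2 in irradiated cultures, against 17.2, 17.3 and 16.02 in mock cultures. Neither was called. The other 8 of the 10 members with the highest mean signal were MIR548D2, MIR548AJ2, MIR548AI, MIR548G, MIR548I4, MIR548H2, MIR4466 and MIR1303, none called, and MIR1303 had a difference of 0.090.

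**Figure D3:**
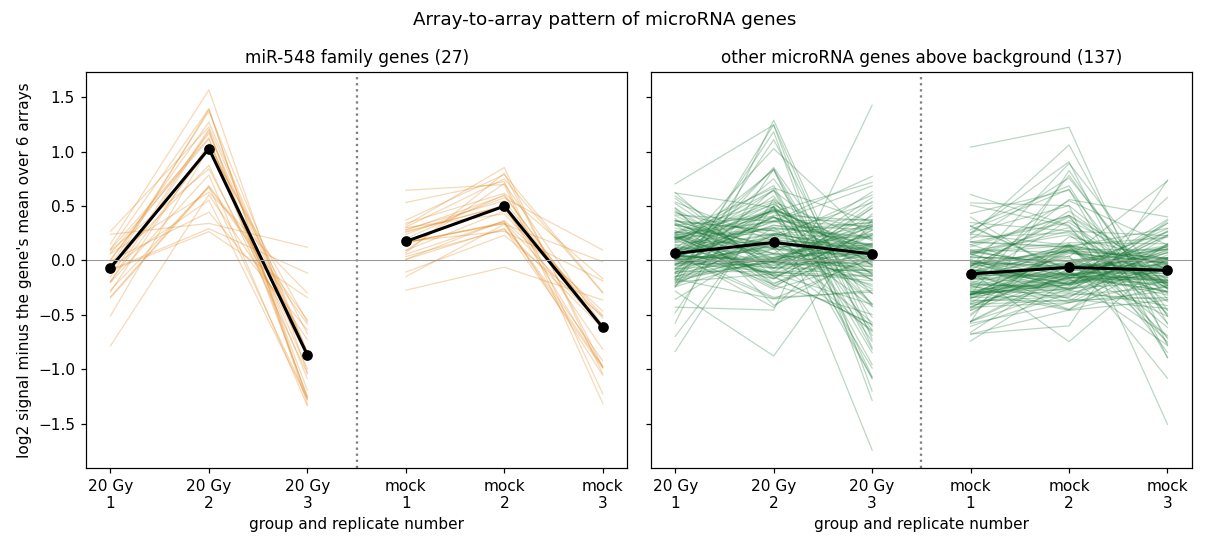
Lines are single microRNA genes, with irradiated cultures (20 Gy) left of mock cultures and the log2 signal minus the gene's own mean on the vertical axis. The heavy line is the median. The miR-548 genes (left panel, 27 genes) were high in replicate 2 and low in replicate 3 of both groups, and the other 137 members varied less.

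The chromosome in a cluster's identifier and the RefSeq chromosome of its symbol were the same for 99.7% of 22727 clusters placed in both. Among the 164 members they differed in 25, of which 23 were miR-548 genes, the called MIR548M among them. Without these 25 members, a set chosen after the values were seen, the median difference was 0.19, and 20 of the 139 were called, 18 higher and 2 lower. Without the miR-548 family it was 0.19 as well, with 20 of 137 called. Which genomic copy the probes of the 25 clusters read is not given in the sources used here.

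Base composition of the mature strands, a property the rule did not use, was available for 144 members (87.8%). The mean share of G and C in a member's mature strands had a median of 36.4% in 18 miR-548 members and of 57.1% in 126 others. Members under 40% (25, of which 15 were miR-548 genes) had a median difference of -0.028, and 7 were higher. Members from 40% to 50% had a median of 0.11 (20 of 27 higher), those from 50% to 60% one of 0.19 (31 of 40), those from 60% to 70% one of 0.33 (22 of 29), and those from 70% up one of 0.17 (15 of 23). Across the 144 members Pearson's r between GC share and difference was 0.24 and Spearman's rho 0.24. Across the 126 other than miR-548 they were 0.19 and 0.17, as a description, since all points come from the same 6 arrays.

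Of the 139 members on the chromosome of their cluster, 131 had a strand in the RefSeq tables, of which 71 lay within another gene of the same strand and 60 had none placed there by these tables. The median differences were 0.17 and 0.225. Of the hosts, 35 were measured above background. A member and its host had the same sign in 13 of 35 pairs. The members had a median difference of 0.11, with 22 higher, and the hosts had a median of -0.067, with 10 higher. Of all genes above background 28.2% were higher. The count of same signs depends on these shares, and whether it differed from what they give was not tested. Pearson's r over the pairs was -0.28.

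MIR4748 in DNM2, a dynamin of endocytosis, and its host had differences of opposite sign. DNM2 had a difference of -0.26 (adjusted p = 0.0795), lower in all 3 pairs, while MIR4748 was higher by 0.91. MIR3173 lies in DICER1, the enzyme that makes mature microRNAs, and had a difference of 0.53, beside -0.11 for DICER1. MIR3153 was higher by 0.56, beside -0.35 for CKS2, a cyclin-dependent kinase subunit. LRP1, an endocytic receptor, was the single host called, at -0.65 (adjusted p = 0.0163), and its member MIR1228 had a difference of 0.30. Of 7 called members with a measured host, no host was called. Whether the members' signals came from the hosts' introns was not tested.

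**Figure D4:**
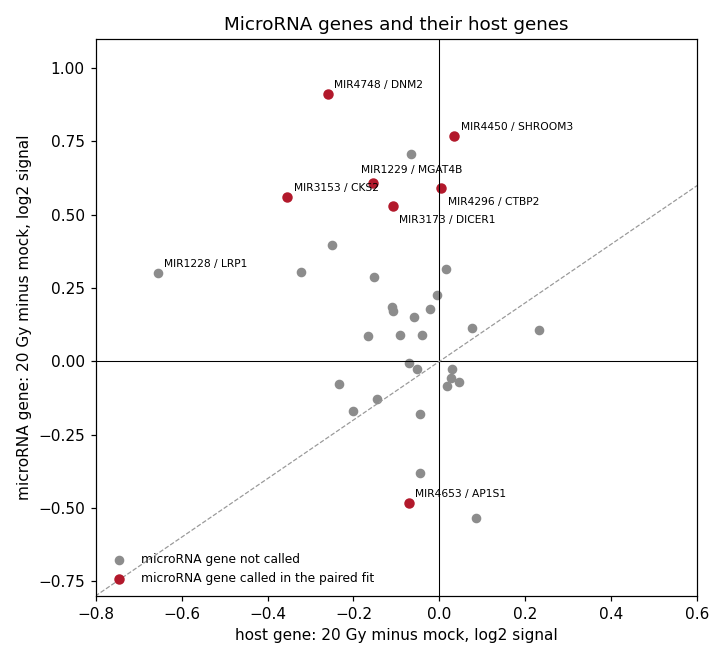
Each point is a microRNA gene and its host gene, with the host's 20 Gy minus mock difference in log2 signal on the horizontal axis and the microRNA gene's on the vertical axis; the dashed line marks equality. Of the 7 called microRNA genes with a measured host, all but MIR4653 lie above the line.

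Pairs of members whose RefSeq starts lay within 10000 bases were 3 in number. MIR657 and MIR1250, 7920 bases apart, had differences of 0.74 and 0.25, and MIR4516 and MIR3180-5, 2858 bases apart, had 0.48 and -0.063. MIR3677 and MIR4717, 3907 bases apart, had 0.33 and 0.40. Only MIR657 and MIR4516 of these were called.

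None of the tested genes of the machinery that makes and uses microRNAs passed the paired test. Of 25 listed genes 18 had a cluster of their own, and 14 were above background and tested. None was called higher or lower in the paired limma fit, which called 5.01% of all genes. The 7 without a cluster of their own, DGCR8, AGO1, AGO2, AGO3, AGO4, DDX5 and KHSRP, stood in clusters of several symbols and were not tested. XPO5, the exporter of hairpins, had a difference of 0.25 (adjusted p = 0.233). DROSHA, which releases the hairpin, had -0.068, and DICER1 -0.11. TNRC6B, a scaffold of the silencing complex, had the smallest p, with a difference of -0.26 (adjusted p = 0.0864). DDX17, a helicase of the DROSHA complex, had -0.22, and ADAR, which edits double-stranded RNA, 0.23. The median difference over the 14 was -0.071, with 4 higher, beside -0.089 and 28.2% for all genes above background in the deposited values.

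Just above the limit stood MIR4668, MIR421, MIR551B and MIR4275, with mean log2 signals of 6.04, 6.03, 6.03 and 6.02. Just below it stood MIR711, MIR500A, MIR4449 and MIR4712, with 6.01, 5.98, 5.98 and 5.96.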

How the data were processed

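Gene-level values are log2 signals as deposited. RMA, named in the submitters' processing notes, corrects background, normalizes between arrays and summarises probes. No source used here gives its version or variant, or the array's genome build. An exon-level table was not used. Clusters were named from the platform annotation, single symbols only. Hosts, neighbours and sequences came from RefSeq tables of GRCh38.p14, whose coordinates were used only for these relations.

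Deposited log2 values entered limma 3.58.1 (R 4.3.3; lmFit, eBayes with a variance trend; Benjamini-Hochberg; threshold 0.05), unpaired over all clusters and with the replicate number as a block over genes above background. A replicate number was taken as a pairing because deviations from group means correlated at 0.523, 0.644 and 0.705 within numbers, against -0.555 to 0.0721 between them. Deviations from a group mean cancel out over the cultures of a group, so high values within numbers make those between numbers lower. The fits were also run on data simulated with the replicate block and with independent noise for each gene. Such data assume the pairing and cannot test it.

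Members, lists and the paired fit above background were chosen with earlier results of these data known, in which unpaired fits called nothing. The text names the 10 brightest members, the 12 largest increases and decreases of the same sign in all pairs, each called member, members of fixed families, and the neighbours of the limit; seed partners, host pairs and neighbouring members are named as such, after their values were seen. Alternatives were normalization, filters, the variance trend, pairing and leaving out arrays or pairs.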

Additional observations from a re-analysis of the deposited data

How the results depend on the processing

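The unpaired fit called 0 members under each of its 12 alternatives. The paired fit called 0 genes of the microRNA pathway list under the 5 alternatives run for it (quantile normalization, no replicate block and leaving out each pair). For the paired fit, the count of called members was 21. It was 0 with no replicate block, 0 with the replicate block over all transcript clusters and 0 with it over all single-symbol genes. The wider fits test more genes and also take dim genes into the variance estimate. The lowest adjusted p of any gene was 0.0759 in the paired limma fit over all single-symbol genes. Centring the arrays on their medians gave 33. Leaving out 1 replicate number gave 10 to 14. Quantile normalization, cyclic loess, no variance trend and a level above 7 gave 14 to 21, within 1.5 times. A level above 7 also took the dimmer members out of the test. The calls over all genes moved too, from 467 to 1691 after centring and to 66 to 251 without 1 replicate number. They were 179 to 454 under the other alternatives named here. Of the 21 called members 16 stayed called under all 3 normalizations, and 4 (MIR181D, MIR4450, MIR4737 and MIR4748) also without each pair. Of these 4, MIR4450 passed the signal limit only through the irradiated group, and the mock mean of MIR4748 lay just above that limit. These alternatives do not address either point. The members' median difference of 0.16 ranged from 0.084 to 0.25 over the normalizations, filters and arrays left out, and with the replicate block was 0.070 within replicate number 3. The alternatives without miR-548, on the same chromosome or with both means above the limit were chosen after seeing the data and gave 0.14 to 0.19. Leaving out 1 array moved the unpaired difference of MIR29A between -0.13 and 1.22. The cause of these changes was not tested. Dim members lie near the signal of background probes, which limits the size of their differences.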
